A study of Mus musculus with 18 samples.

Results

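The 6 genes described here control whether the translation initiation factor eIF2 is phosphorylated on its alpha subunit. They comprise 4 eIF2α kinases (Eif2ak1, Eif2ak2, Eif2ak3 and Eif2ak4) and 2 regulatory subunits of the phosphatase PP1 (Ppp1r15a and Ppp1r15b). They were taken as listed members, by symbol, from a deposited table of 12205 genes, and all 6 were found with a value in each of its 12 fold columns. No filter on low values was applied.

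Each kinase answers to its own stress: HRI (Eif2ak1) to haem shortage and mitochondrial stress, PKR (Eif2ak2) to double-stranded RNA, PERK (Eif2ak3) to misfolded protein in the endoplasmic reticulum, and GCN2 (Eif2ak4) to amino acid shortage. GADD34 (Ppp1r15a), which is induced by stress, and CReP (Ppp1r15b), which is made constitutively, bring PP1 to eIF2α and reverse the phosphorylation. Phosphorylated eIF2 binds and inhibits eIF2B, the factor that reloads eIF2 with GTP, and mutations of eIF2B subunits cause vanishing white matter disease, in which astrocytes are prominently affected.

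Primary astrocytes carrying the R132H change in both copies of mouse Eif2b5 gave every library of the series; Eif2b5 is the catalytic subunit of eIF2B. Cells were kept for 120 hr, either with no cytokine or with TNFα at 20 ng/ml together with IL-1β at 0.25 ng/ml during the final 24 hr or the final 48 hr. RNA-seq measured mRNA, and Ribo-seq measured ribosome-protected fragments (RPF), the stretches of mRNA that ribosomes shield from nuclease. These make up 6 groups of 3 libraries (batches A, B and C), 18 in all, and every group carries the mutation. The WT libraries behind the WT columns of the table belong to no group here.

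The table gives log2 folds of treated over untreated cells at 24 hr and 48 hr for mRNA, RPF and ribosome density (RD), in mutant and in WT. One fold is given for each gene and comparison, with no value per library, no level and no depth. No error, interval or p-value could therefore be attached to any value below, and the order of 2 folds cannot be set against a replicate error. Folds at 24 hr and 48 hr share their untreated libraries, so they are given side by side. Fewer cells of a type and less RNA per cell cannot be told apart in such bulk cultures. All 10 of the astrocyte markers examined (Gfap, Aqp4, Slc1a2, Slc1a3, Aldoc, Aldh1l1, S100b, Gja1, Sox9 and Glul) have a fold in the table. Their median mutant mRNA fold was -0.57 at 24 hr and -0.69 at 48 hr per the authors' deposited table. At each time 3 of the 10 were at or below -1 (7.27% and 8.24% of all genes) and 1 at or above 1 (7.73% and 8.96%). At 24 hr Aldoc had -2.16, Gfap -1.58 and Slc1a2 1.99 per the authors' deposited table. Among 5 fibroblast and mural markers, Dcn had 4.60 and 5.95, Lum 3.47 and 3.72 and Acta2 -2.81 and -3.46 at 24 hr and 48 hr per the authors' deposited table. Pdgfra, of the oligodendrocyte lineage and of fibroblasts, had 1.73 and 2.35 per the authors' deposited table. Of 7 markers of microglia and macrophages 2 have a fold. Those 2, Cd68 and Adgre1, had mutant mRNA folds of 1.89 and 0.82 at 24 hr and of 1.18 and 6.71 at 48 hr per the authors' deposited table, and the part of these other cells in the values below was not tested.

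Of the 6 genes, Eif2ak2, Eif2ak3 and Ppp1r15b had the high folds after cytokine treatment. These 3 were at or above a log2 fold of 0.5 in mRNA and in RPF, at both times and in both genotypes, per the authors' deposited table. In the mutant, 15.5% of all genes reached 0.5 in mRNA at 24 hr, 19.7% in mRNA at 48 hr, 15.8% in RPF at 24 hr and 15.2% in RPF at 48 hr. In the WT 14.8% of all genes did so in mRNA at 24 hr, 16.5% in mRNA at 48 hr, 17.2% in RPF at 24 hr and 17.7% in RPF at 48 hr. Only Eif2ak2 reached a fold of 1: 1 of 6 members did so in mutant mRNA at 24 hr (7.73% of all genes) and in mutant RPF at 24 hr (7.32%). None of the 6 did so at 48 hr in the mutant, in mRNA (8.96% of all genes) or in RPF (7.43%). A threshold of 1.5 was reached by none in the mutant at 24 hr, in mRNA (5.21% of all genes) or in RPF (5.06% of all genes). The lowest of the 72 member folds per the authors' deposited table was -0.45, for Eif2ak1 in WT RD at 48 hr.

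From the authors' deposited table, the 6 genes had a median mutant mRNA fold of 0.42 at 24 hr and 0.45 at 48 hr, beside 0.03 and 0.04 over all genes. For RPF the medians from the authors' deposited table were 0.45 and 0.435, beside 0.01 at both times over all genes. At 24 hr the mRNA median was 0.39 for the 4 kinases and 0.44 for the 2 phosphatase subunits.

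**Figure D1:**
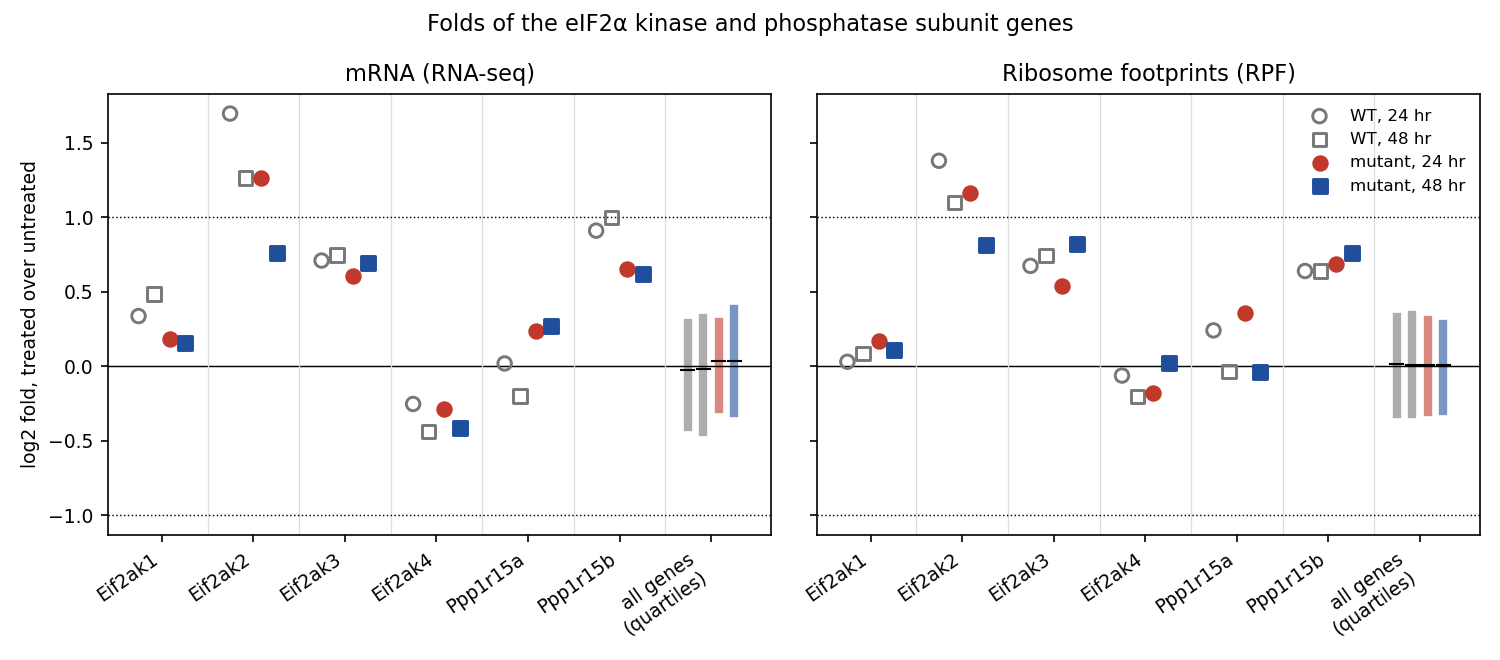
Log2 fold of treated over untreated cells (vertical axis) for each of the 6 genes, in mRNA (left) and ribosome footprints (right), from the authors' deposited table. Circles are 24 hr and squares 48 hr, open for WT and filled for mutant. Each point is 1 pooled fold with no error, the bars at the right span the quartiles of all genes with the median as a line, and dotted lines mark folds of 1 and -1. Eif2ak2 is the highest gene in both panels at 24 hr, and Eif2ak4 is below 0 in mRNA in all 4 columns.

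Eif2ak2 encodes PKR, an interferon-inducible kinase that binds double-stranded RNA. The gene lies on chromosome 17 (78852564 to 78882573, minus strand, GRCm38) and its annotated transcript has 16 exons. The promoter, from 250 bases before to 50 after the RefSeq start (GRCm38.p6, chr17:78882523-78882822, minus strand), is shown because it holds a match to the core of the interferon-stimulated response element (a pair of GAAA half-sites with any 2 bases between them), written here in capitals.
Eif2ak2: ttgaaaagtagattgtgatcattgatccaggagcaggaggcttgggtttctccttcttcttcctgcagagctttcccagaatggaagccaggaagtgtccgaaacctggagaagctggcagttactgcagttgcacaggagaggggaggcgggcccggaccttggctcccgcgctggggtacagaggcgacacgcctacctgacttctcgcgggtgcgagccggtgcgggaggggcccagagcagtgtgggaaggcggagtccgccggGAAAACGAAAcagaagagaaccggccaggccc
The match lies at bases 269 to 278 of the window. Searched on both strands, that core occurs in 3.44% of 32851 promoters of the same length and in 3.05% of those whose gene is in the fold table. A match describes the letters and does not show that a factor binds there.

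In the mutant, Eif2ak2 mRNA had a log2 fold of 1.26 at 24 hr and 0.76 at 48 hr per the authors' deposited table, which are linear ratios of 2.40 and 1.69. Footprints of Eif2ak2 stood at 1.16 and 0.81 per the authors' deposited table, or 2.24 and 1.75 as ratios. Both measures were thus above 0 at both times and lower at 48 hr than at 24 hr. Among all genes the mutant mRNA folds of Eif2ak2 lay at percentiles 93.9 and 87.3, and its footprint folds at 93.6 and 90.9. The 48 hr fold minus the 24 hr fold was -0.50 in mRNA, at percentile 3.4 of all genes, and -0.35 in RPF, at percentile 8.9. WT Eif2ak2 had mRNA folds of 1.70 and 1.26 and footprint folds of 1.38 and 1.10 per the authors' deposited table, so in every one of these 4 columns the WT value was the higher. WT folds at or above 1 were found for 1 of 6 members in mRNA at 24 hr (7.54% of all genes) and 48 hr (8.11%) and in RPF at 24 hr (7.87%) and 48 hr (8.13%), and that member was always Eif2ak2.

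Eif2ak2 was set beside 25 measured genes of a list of 26 interferon-stimulated double-stranded RNA sensors and antiviral genes, of which Adar is also among the kinase cofactors below. From the authors' deposited table, these had a median mutant mRNA fold of 3.37 at 24 hr and 2.42 at 48 hr. A fold of at least 1 was reached by 24 and 20 of the 25 (7.73% and 8.96% of all genes). Median footprint folds of the list per the authors' deposited table were 2.98 and 1.69, also with 24 and 20 genes at or above 1 (7.32% and 7.43% of all genes). The Eif2ak2 folds were below these medians in all 4 columns. Zbp1, a sensor of Z-form nucleic acid, had mutant mRNA folds of 6.98 and 6.19 per the authors' deposited table. Oas1a, a 2′-5′ oligoadenylate synthetase, had 5.60 and 5.31 per the authors' deposited table, with footprint folds of 2.98 and 1.52 and RD folds of -2.71 and -3.02. Mx1, an antiviral GTPase, had mRNA folds of 4.95 and 2.49, and Isg15, the ubiquitin-like modifier, 4.63 and 3.31 per the authors' deposited table. Oas3 had the highest RD folds among the genes named from this list at 48 hr, with 0.87 at 24 hr and 1.42 at 48 hr per the authors' deposited table. The change from 24 hr to 48 hr was a median of -0.83 in mRNA and -1.02 in RPF over the 25 genes, against the -0.50 and -0.35 of Eif2ak2. Of the 22 RefSeq promoters of the list of 26, 10 held this core (45.5%, beside 3.44% of all promoters). They belong to 10 of 17 genes, among them Oas1g, which has no fold.

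**Figure D2:**
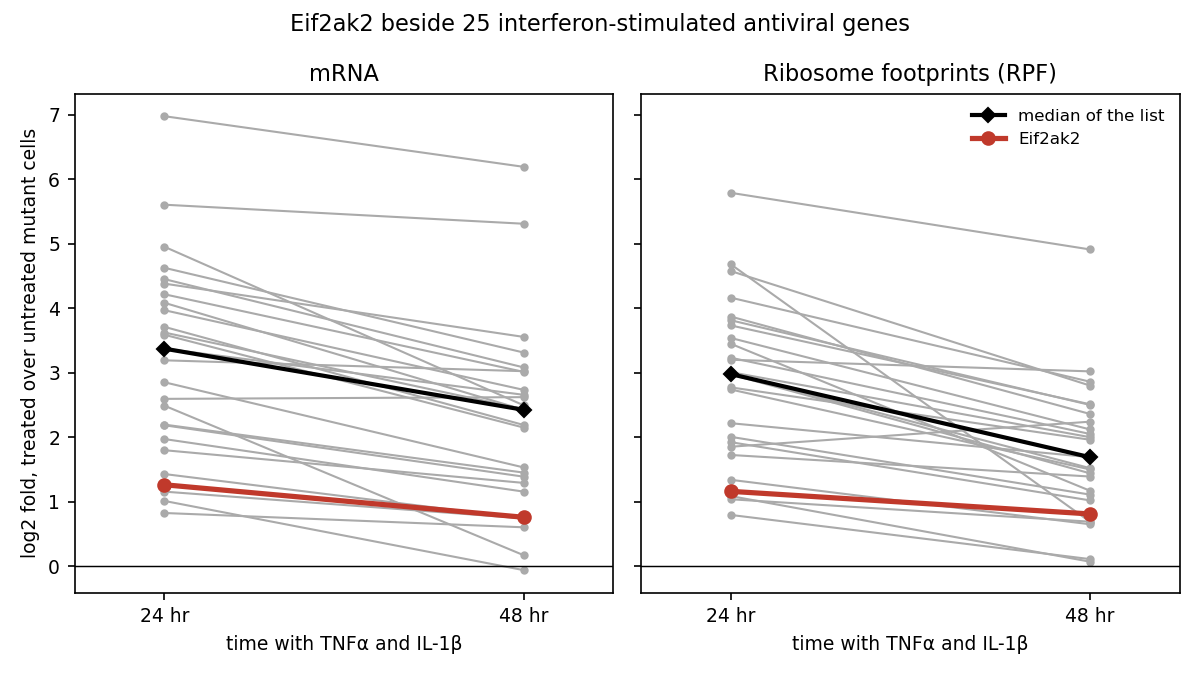
Log2 fold of treated over untreated mutant cells (vertical axis) at 24 hr and 48 hr (horizontal axis) in mRNA (left) and footprints (right), from the authors' deposited table. Grey lines are the 25 interferon-stimulated genes, black diamonds their median and red circles Eif2ak2, each a single pooled fold. Eif2ak2 goes from 1.26 to 0.76 in mRNA and lies near the lower edge of the list in both panels.

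By Euclidean distance over the 12 folds, the 5 genes most like Eif2ak2 among 11757 named genes with a full set of folds were Trim25 (distance 0.595), Trim12c (0.634), Etl4 (0.642), Zeb2 (0.647) and Cxadr (0.651). Trim25, a ubiquitin ligase acting on the RNA sensor RIG-I, had mutant mRNA folds of 1.55 and 1.10 and RPF folds of 1.33 and 0.95 per the authors' deposited table. The choice of measure decided these names: ranking by Pearson correlation, or by distance over the 6 mutant folds alone, shared 0 of the 5.

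Eif2ak3 encodes PERK, the kinase of the endoplasmic reticulum membrane, on chromosome 6 (70844515 to 70905245, plus strand, GRCm38). Its promoter (RefSeq, GRCm38.p6, chr6:70844265-70844564, plus strand) is shown with its 6 CCAAT boxes in capitals, which read ATTGG where they lie on the opposite strand.
Eif2ak3: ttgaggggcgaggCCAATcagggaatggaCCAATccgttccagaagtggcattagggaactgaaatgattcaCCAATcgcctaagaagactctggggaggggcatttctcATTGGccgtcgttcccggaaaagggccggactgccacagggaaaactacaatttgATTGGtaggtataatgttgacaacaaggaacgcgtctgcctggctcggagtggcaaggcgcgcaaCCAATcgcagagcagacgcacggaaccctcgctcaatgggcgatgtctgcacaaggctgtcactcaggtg
At least 1 CCAAT box is found in 37.4% of the 32851 promoters. How many promoters hold 6 was not counted. Of the 13 promoters of the unfolded protein response list described below, 11 had one. So had 16 of 28 for the stress response effectors, 7 of 14 for the kinase cofactors and 11 of 22 for the antiviral list. The lists of eIF2 with eIF2B and of PP1 with actin had 4 of 11 and 1 of 3. The Eif2ak1 window also holds a CCAAT box.

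Mutant Eif2ak3 mRNA folds were 0.60 at 24 hr and 0.69 at 48 hr per the authors' deposited table, at percentiles 87.2 and 85.8 of all genes. Eif2ak3 footprints had folds of 0.54 and 0.82 per the authors' deposited table. All 4 values were above 0 and below 1, and the footprint fold was higher by 0.28 at 48 hr, which lay at percentile 90.3. In the WT, the authors' deposited table gave Eif2ak3 mRNA folds of 0.71 and 0.75 and footprint folds of 0.67 and 0.74. The mutant and WT folds of Eif2ak3 differed by at most 0.14 in these columns.

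The list of the other branches of the unfolded protein response had medians below the Eif2ak3 folds, with Ern1 above them. The 16 genes of that list, all measured, had median mutant mRNA folds of 0.13 and 0.02 and median RPF folds of 0.07 and 0.01 at the 2 times per the authors' deposited table. Only Ern1, which encodes the sensor IRE1α, was at or above 1, with mRNA folds of 1.06 and 1.07 and RPF folds of 1.45 and 1.45 per the authors' deposited table. Over all genes 7.73% and 8.96% were at or above 1 in mRNA and 7.32% and 7.43% in RPF. A count of 1 of 16 is near these shares. Xbp1, whose mRNA IRE1α splices, had mRNA folds of 0.41 and 0.40, and the disulfide isomerase gene Pdia6 0.55 and 0.35 per the authors' deposited table. Syvn1, the ubiquitin ligase of protein quality control, had 0.36 and 0.64 in mRNA and -0.32 and -0.53 in RD per the authors' deposited table. Dnajb9, a cochaperone of BiP, had RD folds of 0.27 and 0.51 per the authors' deposited table.

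Eif2ak1 encodes HRI and lies on chromosome 5 (143817788 to 143904251, plus strand, GRCm38). The mutant folds of Eif2ak1 were close to 0, at 0.18 and 0.15 in mRNA and 0.17 and 0.11 in RPF at 24 hr and 48 hr per the authors' deposited table. WT Eif2ak1 had mRNA folds of 0.34 and 0.48 and footprint folds of 0.03 and 0.09 per the authors' deposited table. Both WT mRNA folds exceeded the mutant ones, while both WT footprint folds were below them. Ankrd61 and Aimp2 overlap Eif2ak1 on the opposite strand, and the sources used here do not state the strand setting of the counting, so reads of overlapping exons may be shared. Eif2ak2 and Eif2ak3 each overlap 2 annotated genes that are not protein-coding, and Ppp1r15b overlaps 1. The same limit holds for those on the opposite strand. At Eif2ak3, 1 of the 2, a small nucleolar RNA gene, lies on the same strand, so the strand setting does not bear on it.

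Eif2ak4 encodes GCN2 and lies on chromosome 2 (118388618 to 118475234, plus strand, GRCm38), with no annotated gene overlapping it. It was the one member with mRNA folds below 0 throughout, at -0.29 and -0.42 in the mutant and -0.25 and -0.44 in the WT per the authors' deposited table. Its mutant footprint folds were -0.18 at 24 hr and 0.02 at 48 hr, against -0.06 and -0.20 in the WT, per the authors' deposited table. At 48 hr the mutant mRNA value was thus low and the footprint value near 0.

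Of 17 symbols listed for activators, inhibitors and cofactors of the kinases, 15 were found. Dele1 was not, and the GCN2 activator Gcn1, listed under its current and its older symbol, was found as Gcn1l1. The 15 had a median mutant mRNA fold of 0.32 at 24 hr and 0.42 at 48 hr per the authors' deposited table. At each time 1 of the 15 reached 1 in mRNA, where 7.73% and 8.96% of all genes did. In RPF 3 reached it at 24 hr and 2 at 48 hr, where 7.32% and 7.43% of all genes did. The gene in mRNA was Zc3hav1, which encodes the antiviral protein ZAP, with 1.65 and 1.07 per the authors' deposited table. Being listed does not show that Zc3hav1, or Fkbp1a below, acts on an eIF2α kinase. Nck1, an adaptor that binds PERK, had 0.97 and 0.95, and Adar, the editing enzyme of double-stranded RNA, 0.82 and 0.60 in mRNA per the authors' deposited table. Impact, an inhibitor of GCN2 activation, had 0.72 and 0.75 in mRNA and 0.94 and 0.97 in RPF per the authors' deposited table. Tarbp2, which encodes the PKR-binding protein TRBP, had RD folds of -0.59 and -0.70 in the mutant and of 0.89 and 0.71 in the WT per the authors' deposited table. For Fkbp1a, the peptidyl-prolyl isomerase FKBP12, RD folds were 0.48 and 0.39 in the mutant and 0.30 and 0.26 in the WT per the authors' deposited table.

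Ppp1r15b, which encodes CReP, lies on chromosome 1 (133131143 to 133139783, plus strand, GRCm38). In the mutant, Ppp1r15b had mRNA folds of 0.65 and 0.62 and footprint folds of 0.69 and 0.76 at 24 hr and 48 hr per the authors' deposited table. These lay between percentiles 84.2 and 90.2 of all genes. In the WT, Ppp1r15b had mRNA folds of 0.91 and 0.997, the latter just under the threshold of 1, and RPF folds of 0.64 and 0.64 per the authors' deposited table. The mRNA fold was higher in the WT and the footprint fold higher in the mutant at both times.

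Ppp1r15a, which encodes GADD34, lies on chromosome 7 (45522916 to 45526268, minus strand, GRCm38). Tulp2 overlaps it on the opposite strand, with the same limit as for Eif2ak1. Its promoter (RefSeq, GRCm38.p6, chr7:45526219-45526518, minus strand) is shown because, like that of Eif2ak2, it holds that interferon core (bases 31 to 40), and because it holds a full cyclic AMP response element, TGACGTCA (bases 239 to 246), both in capitals.
Ppp1r15a: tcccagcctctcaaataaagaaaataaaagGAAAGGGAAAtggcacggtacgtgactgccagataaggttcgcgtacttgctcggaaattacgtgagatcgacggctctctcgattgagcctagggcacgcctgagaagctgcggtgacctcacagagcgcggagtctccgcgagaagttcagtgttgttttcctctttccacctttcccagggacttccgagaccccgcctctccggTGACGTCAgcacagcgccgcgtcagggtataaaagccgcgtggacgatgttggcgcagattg
The cyclic AMP response element occurs in 1.79% of all promoters of this length and in 3.03% of those of genes in the fold table. The 5 members with a RefSeq promoter thus include 2 with the interferon core, of which Eif2ak2 had the highest mRNA folds of the 6 genes and Ppp1r15a had mutant mRNA folds of 0.23 and 0.27 per the authors' deposited table. A TATAAA box was found in the Ppp1r15a window alone among the members (13.6% of all promoters), the NF-kB motif in 1 of the 2 Eif2ak4 windows alone (8.46%), and the core of the C/EBP-ATF response element, TGATGNAA, in none (3.97%).

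While its mutant mRNA stood at 0.23 at 24 hr and 0.27 at 48 hr, the Ppp1r15a footprints had folds of 0.36 and -0.04 per the authors' deposited table, so the mRNA values were close at the 2 times and the footprint value was lower at 48 hr. The footprint difference of -0.40 lay at percentile 6.8 of all genes. WT Ppp1r15a had folds of 0.02 and -0.20 in mRNA and 0.24 and -0.04 in RPF per the authors' deposited table, and its RPF difference between the times was -0.28, at percentile 12.4. The stress-inducible subunit gene thus had lower mutant folds than the constitutive one in mRNA and in RPF at both times.

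The catalytic subunits of PP1 had mRNA folds near or below 0. The mutant mRNA folds at 24 hr and 48 hr per the authors' deposited table were -0.01 and -0.02 for Ppp1ca, -0.17 and -0.47 for Ppp1cb, and 0.01 and 0.03 for Ppp1cc. Monomeric actin takes part in the eIF2α phosphatase complex, so the actin genes were listed with PP1. Actb had mRNA folds of -1.13 and -0.89 and Actg1 of -1.02 and -0.75 in the mutant per the authors' deposited table. These actin genes were the 2 of 5 list genes at or below -1 in mutant mRNA at 24 hr, where 7.27% of all genes were, and none of the 5 was at 48 hr (8.24% of all genes).

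Ribosome density folds of the 6 genes lay between -0.28 and 0.58 in the mutant per the authors' deposited table. None was at or above 1 at 24 hr or at 48 hr, where 0.606% and 0.762% of all genes were, so that count is near the share of all genes. The highest was Eif2ak4 at 48 hr, with an RD fold of 0.58 per the authors' deposited table, at percentile 95.8 of all genes, and it was the 1 of 6 members at or above 0.5 (6.58% of all genes). Its RD fold at 24 hr was 0.17 per the authors' deposited table, and the WT had 0.19 and 0.26. The Eif2ak4 RPF fold minus its mRNA fold at 48 hr was 0.44, at percentile 94.6, which comes from an mRNA fold of -0.42 beside a footprint fold of 0.02. The lowest was Ppp1r15a at 48 hr, with -0.28 after 0.16 at 24 hr per the authors' deposited table. That difference of -0.44 lay at percentile 6.0 of all genes, and the WT had 0.13 and 0.03. Ppp1r15a has the highest transcript GC content of the 6 genes, at 55.7%. Across genes, mutant RD at 48 hr and its change from 24 hr ran against GC content (Spearman's rho -0.51 and -0.48).

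For the other members, mutant RD folds at 24 hr and 48 hr per the authors' deposited table were 0.04 and 0.05 for Eif2ak1, -0.06 and 0.15 for Eif2ak2, -0.03 and 0.21 for Eif2ak3, and 0.10 and 0.26 for Ppp1r15b. WT values per the authors' deposited table were -0.36 and -0.45 for Eif2ak1, -0.41 and -0.28 for Eif2ak2, -0.09 and -0.05 for Eif2ak3, and -0.32 and -0.44 for Ppp1r15b. WT RD folds above 0 were found for 2 of 6 members at each time, Eif2ak4 and Ppp1r15a (47.2% and 45.8% of all genes). RD was above 0 in the mutant and below 0 in the WT at both times for 2 of the 6 genes, Eif2ak1 and Ppp1r15b, as it was for 16.8% of all genes. Mutant RD folds were above 0 for 4 of 6 members at 24 hr (51.5% of all genes) and 5 of 6 at 48 hr (54.6%). The formula of RD is stated nowhere in the sources used here. RD exceeded the RPF fold minus the mRNA fold by a median of 0.04 at 24 hr and 0.08 at 48 hr in the mutant and lay 0.05 under it at both times in the WT (medians of -0.05), so small RD values carry an offset that differs between the genotypes. With the plain difference in its place, Eif2ak1 in the mutant had -0.01 and -0.04.

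**Figure D3:**
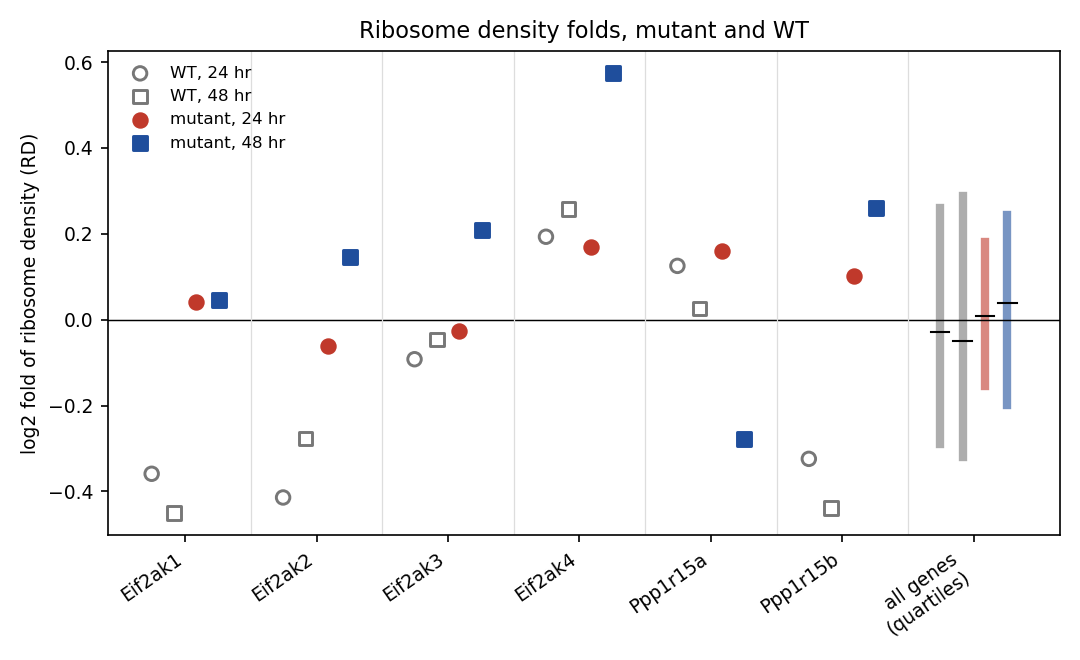
Log2 fold of ribosome density (vertical axis) for each of the 6 genes, from the authors' deposited table. Circles are 24 hr and squares 48 hr, open for WT and filled for mutant, each a single pooled fold, and the bars at the right span the quartiles of all genes with the median as a line. The mutant value of Eif2ak4 at 48 hr, 0.58, is the highest, and Eif2ak1, Eif2ak2, Eif2ak3 and Ppp1r15b have both WT values below their mutant values of the same time.

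Differences between mutant and WT folds were mostly of opposite sign in mRNA and in RD. RD lies close to the RPF fold minus the mRNA fold, so an mRNA difference enters RD with its sign reversed. Opposite signs are therefore partly built into these 2 measures and are no separate result. The mutant mRNA fold was above the WT fold for 1 of 6 members at 24 hr and 2 of 6 at 48 hr, where 50.6% and 47.2% of all genes were. The mutant RD fold was above the WT fold for 5 of 6 at each time, where 56% and 57.1% of all genes were. With the plain difference of footprint and mRNA folds as density, the counts were 3 of 6 at 24 hr (47.9% of all genes) and 5 of 6 at 48 hr (49.6%). Footprints were more even, with 3 of 6 at 24 hr (49.2% of all genes) and 4 of 6 at 48 hr (50.1%). Since the WT libraries lie outside the series, a difference of genotype and one of library set cannot be told apart.

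The widest mRNA differences below 0 were those of Eif2ak2, at -0.43 and -0.50 for 24 hr and 48 hr (percentiles 3.2 and 6.5 of all genes). The footprint differences of Eif2ak2 were -0.22 and -0.29. Ppp1r15a had mRNA differences of 0.22 and 0.47, above 0, with footprint differences of 0.12 and -0.00. For Ppp1r15b the RD differences were 0.43 and 0.70, for Eif2ak1 0.40 and 0.50, and for Eif2ak2 0.35 and 0.42. These 3 lay between percentiles 70.9 and 88.1 of all genes.

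GC content of the transcript moved with these differences, and with RD folds within each genotype, over the whole table. Spearman's rho across genes (11990 for RD and RPF at 24 hr, 11989 otherwise) between transcript GC and the mutant-minus-WT difference was 0.68 and 0.77 in mRNA and -0.59 and -0.70 in RD, but -0.05 and -0.08 in RPF. Within the mutant, rho with GC was -0.16 and -0.51 for RD at 24 hr and 48 hr. For the mutant change from 24 hr to 48 hr it was -0.48 in RD and 0.48 in mRNA. WT RD folds had 0.52 and 0.59 (11990 genes). Genes are not independent, and RD shares its mRNA libraries with the mRNA folds, so these values are a description. Eif2ak2 has the lowest transcript GC of the 6 genes, at 43.9%, and Ppp1r15a the highest, at 55.7%, beside a median of 50.3%. After the median of each of 20 GC bins was subtracted, a step chosen after the data were seen, the Eif2ak2 mRNA differences were -0.27 and -0.20 and its RD differences 0.07 and -0.05. The Ppp1r15a mRNA differences became -0.04 and -0.00. Eif2ak2 footprint differences were as large as before, at -0.22 and -0.29. Ppp1r15b RD differences shrank from 0.43 and 0.70 to 0.23 and 0.45, and those of Eif2ak1 from 0.40 and 0.50 to 0.21 and 0.25.

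The substrate and its exchange factor had small folds. The 12 genes of eIF2, eIF2B and related factors had median mutant mRNA folds of 0.25 and 0.21 per the authors' deposited table. None was at or beyond 1 in either direction at either time. Over all genes 7.73% and 8.96% were at or above 1 and 7.27% and 8.24% at or below -1. Eif2s1, which encodes eIF2α itself, had 0.20 and -0.07 in mRNA, 0.50 and 0.34 in RPF and 0.35 and 0.49 in RD in the mutant per the authors' deposited table. WT Eif2s1 had RD folds of 0.06 and 0.08 per the authors' deposited table. The mutated gene Eif2b5 carries a point change, so its own level checks no label, and it had mRNA folds of 0.29 and 0.24 and RPF folds of 0.16 and 0.06 in the mutant per the authors' deposited table. Also named by the rule for this list were Eif2s2, the beta subunit of eIF2, with 0.39 and 0.21, the Y-linked gamma subunit gene Eif2s3y with 0.64 and 0.42, Eif5, the GTPase activator of eIF2, with 0.35 and 0.15, and Eif2d with 0.31 and 0.34, as mutant mRNA folds per the authors' deposited table.

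Genes downstream of phosphorylated eIF2 were mixed. Of 24 listed effectors of the integrated stress response 23 had folds, with median mutant mRNA folds of 0.46 and 0.55 per the authors' deposited table. A fold of at least 1 was reached by 5 of them at 24 hr and 4 at 48 hr, and a fold of -1 or lower by 2 and 1. Over all genes 7.73% and 8.96% were at 1 or higher and 7.27% and 8.24% at -1 or lower. The transcription factor gene Atf4, whose upstream reading frames couple its translation to eIF2 phosphorylation, had mRNA folds of 0.85 and 0.55 and RPF folds of 0.93 and 0.60 in the mutant per the authors' deposited table. Atf4 RD folds were 0.16 and 0.17 in the mutant and 0.70 and 0.16 in the WT per the authors' deposited table. Ddit3, which encodes the ATF4 partner and target CHOP, an activator of Ppp1r15a transcription, had mRNA folds of 1.17 and 0.86 and RPF folds of 0.49 and 0.18 in the mutant per the authors' deposited table. Its mutant RD folds of -0.63 and -0.56 per the authors' deposited table stood beside WT values of 0.03 and -0.24.

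The other effectors named by size of fold did not form one pattern. Slc7a11, the cystine transporter gene, had mutant mRNA folds of 4.06 and 3.81, and Nupr1, a stress-responsive chromatin protein gene, 3.02 and 2.06 per the authors' deposited table. The transcription factor gene Cebpb had mRNA folds of 2.93 and 2.79 with RD folds of -0.92 and -0.95 in the mutant, and WT RD folds of 0.26 and 0.18, per the authors' deposited table. Psat1, an enzyme of serine synthesis, had mRNA folds of -1.09 and -1.36 per the authors' deposited table. Gdf15, a stress-induced cytokine gene, had mutant RD folds of -0.79 and -0.94 and WT RD folds of 0.62 and 1.20 per the authors' deposited table.

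**Figure D4:**
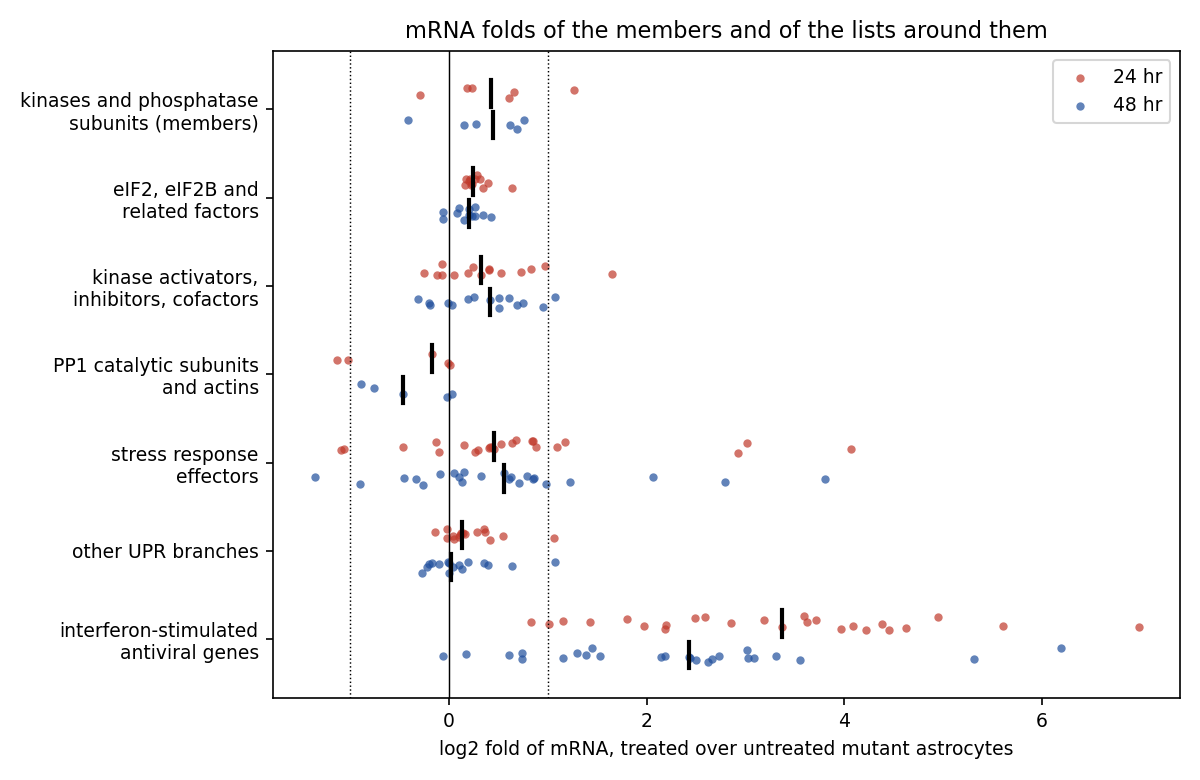
Log2 mRNA fold of treated over untreated mutant astrocytes (horizontal axis) for the 6 genes and for 6 lists of genes around them (rows), from the authors' deposited table. Each dot is a gene, red for 24 hr and blue for 48 hr, black ticks are medians and dotted lines mark folds of 1 and -1. The 6 members have medians of 0.42 and 0.45, close to the stress response effectors at 0.46 and 0.55, and the antiviral list lies far to the right at 3.37 and 2.42.

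Upstream start codons, which can limit or redirect initiation at the main reading frame, differ in number among the 6 transcripts. In the GENCODE transcript with the longest coding sequence, Ppp1r15b has 3 upstream ATGs in a 5′ untranslated region of 604 nt, each opening a reading frame that ends before the main start. The 2 annotated Ppp1r15a transcripts have 3 and 7, with 3 and 6 such closed frames in 283 and 764 nt. Eif2ak3 has 3, Eif2ak2 has 1, and Eif2ak1 and Eif2ak4 have 0, although other Eif2ak4 isoforms have up to 11. Over 11990 genes, 50.4% have at least 1 upstream ATG and 18.5% at least 3, and the median untranslated length is 178 nt. The genes with 3 or more did not share a direction in RD. At 48 hr the mutant RD folds per the authors' deposited table were 0.21 for Eif2ak3, 0.26 for Ppp1r15b and -0.28 for Ppp1r15a.

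A second deposited table lists 2332 transcripts with an IS value, a term left unexplained in the file, for mutant cells at 0 hr and 24 hr, and 2 of the 6 members are in it. Eif2ak2 had an IS value of 0.505 at 0 hr and 0.632 at 24 hr per the authors' deposited table, at percentiles 19.7 and 30.4 of the listed transcripts. Ppp1r15b had 2.80 and 1.66 per the authors' deposited table, at percentiles 53.0 and 49.2. The log2 ratio of 24 hr to 0 hr was 0.32 for Eif2ak2 and -0.75 for Ppp1r15b, beside a median of -0.28 over transcripts with both values above 0. Density of elongation reads, another signal column, was 0.158 for Eif2ak2 and 0.157 for Ppp1r15b per the authors' deposited table, below the median of 0.216.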

How the data were processed

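The series measured mRNA by RNA-seq and ribosome footprints by Ribo-seq in mutant astrocytes. The values used are the authors' deposited log2 folds of treated over untreated cells (mRNA, RPF and RD) and, from another of their deposited tables, IS scores and the density signal of elongation reads. TopHat2, featureCounts and the mouse build mm10 are named, without versions or roles, in the submitters' processing notes. The program behind the folds, the batch handling and the strand setting are stated nowhere in the sources used here. Depth per library is unknown, so no precision could be computed, and no test was run. The 2 columns of WT values in the IS table belong to samples outside the series and were not used.

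From the folds, differences (48 hr minus 24 hr, mutant minus WT, RPF minus mRNA), percentiles among all genes, and counts at log2 thresholds were computed in Python 3.11.15 with pandas 2.3.3 and numpy 2.4.6, and plotted with matplotlib 3.10.9. The percentile, GC correction, nearest-gene and motif search steps were tested on simulated data, and the differences and counts were not. Gene symbols came from the files, and 31 that were damaged by the spreadsheet or occurred more than once were looked up by identifier. The gene Dynlt1b lacks some mutant folds. The 48 hr footprint folds of the mutant carry only 2 decimals as deposited. Transcripts and coordinates came from GENCODE M21 on GRCm38, the assembly of mm10 (11990 genes matched), and promoters from RefSeq on GRCm38.p6, which holds 5 of the 6 members. Alternatives were other thresholds, centred columns, RPF minus mRNA for RD, other measures of likeness and GC-corrected folds.

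The members and the lists were chosen with earlier results of these data known. All 6 members are given in every column. Of each list, up to 4 genes with the largest absolute mutant mRNA fold and up to 2 with the largest absolute mutant RD fold are named, with Eif2s1, Eif2b5, Atf4 and Ddit3. The 5 nearest genes are named for each member at or beyond a fold of 1 in the mutant. Beyond that rule, Ppp1ca, Dele1, Gcn1, marker genes of cell types and the protein-coding genes that overlap members are named.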

Additional observations from a re-analysis of the deposited data

Results flagged for a closer look

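The ribosome density folds of Eif2ak1 and Ppp1r15b were above 0 in the mutant and below 0 in the WT at both times, which is 2 of 6 members where 16.8% of 12204 genes did the same. For Eif2ak1 the mutant fold minus the WT fold was 0.40 at 24 hr and 0.50 at 48 hr. For Ppp1r15b it was 0.43 at 24 hr and 0.70 at 48 hr. The difference was not tested, because each value is a single pooled fold. Where density was taken as the plain difference of footprint and mRNA folds, the mutant values of Eif2ak1 were -0.01 and -0.04, below 0 as in the WT. With folds corrected for GC content, the differences were 0.21 and 0.25 for Eif2ak1 and 0.23 and 0.45 for Ppp1r15b, and the Eif2ak1 mutant RD fold at 48 hr was -0.06.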

How the results depend on the processing

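With a threshold of 0.5 in place of 1, the members at or beyond it in the mutant numbered 3 in mRNA at 24 hr and at 48 hr, 3 in RPF at 24 hr and at 48 hr, and 1 in RD at 48 hr. With 1.5 they numbered 0 in mRNA at 24 hr and 0 in RPF at 24 hr. GC-corrected folds left 3 members above 0 in mutant RD at 48 hr in place of 5. Members with a mutant mRNA fold above the WT fold numbered 0 at 24 hr with GC correction (1 before) and 1 at 48 hr with GC correction or with centred columns (2 before). Centring subtracts the median over all genes, and GC correction the median of each bin. The shares of all genes given above are for uncorrected columns and do not apply to these counts. No share is given for the corrected columns, so the corrected counts carry no result about the members. With RPF minus mRNA as the density, 3 members had a mutant density fold above the WT fold at 24 hr (47.9% of all genes) in place of 5 (56%). Centring changed the sign of 0 of 36 mutant member folds, GC correction of 2 of 36 and RPF minus mRNA of 2 of 12, with largest shifts of 0.04, 0.24 and 0.14. The cause of these shifts was not tested. No paired analysis was possible because the tables hold 1 pooled fold per comparison, and for the same reason no library could be left out and depth limits cannot be stated.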
